A study of Mus musculus with 23 samples.

Results

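The mouse mitochondrial genome carries 37 genes, and all 37 were found by their mt- symbols among the 54393 genes of the deposited tables. They comprise 13 mRNA genes, 2 rRNA genes and 22 tRNA genes. Libraries were made from connecting tubules and collecting ducts microdissected from mouse kidneys, the segments in which aldosterone acts through the mineralocorticoid receptor Nr3c2. All mice carried Pax8-rtTA, TRE-LC-1 and MRflox/flox, in which a Pax8 promoter, active along the renal tubule, allows doxycycline to switch on Cre and delete the floxed receptor gene. Knockout was induced over 2 weeks in which the drinking water held doxycycline at 2 mg/ml and 5% sucrose, followed by a washout of 2 weeks on rescue diet, and controls, which carried the same alleles, had 5% sucrose in their water and no doxycycline. For the last 4 days the mice ate diets that differed in potassium, which gave knockout mice on low potassium (KO-LK, 6 libraries), knockout mice on normal potassium (KO-NK, 6 libraries), control mice on high potassium (CT-HK, 6 libraries) and control mice on normal potassium (CT-NK, 5 libraries). The labels do not say whether libraries of a group came from separate animals, so each p-value speaks only of the spread among the libraries at hand, which may be technical. Every comparison of knockout with control libraries also compares mice that drank doxycycline with mice that did not, and these cannot be told apart. Of the pairings of a knockout with a control group, KO-NK with CT-NK alone has a shared diet, so the other pairings, and the pooled comparison of all knockout (KO-LK and KO-NK) with all control libraries (CT-HK and CT-NK), differ in dietary potassium as well as in genotype. As background, doxycycline is a tetracycline antibiotic that can also inhibit the ribosomes inside mitochondria.

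Mitochondrial DNA is transcribed on both strands into long precursors, which are cut into separate RNAs largely at the tRNAs that lie between the other genes. Every protein it encodes is a membrane subunit of the respiratory chain or the ATP synthase, which are otherwise built from nuclear-encoded subunits, and its 2 rRNAs and its tRNAs serve the ribosomes that translate those proteins. Distal tubule cells are rich in mitochondria, which supply the ATP for sodium and potassium transport. Most mitochondrial mRNAs carry short poly(A) tails, and libraries of this kind (SMART-Seq) start cDNA synthesis from poly(A) and keep no record of strand.

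The sequences show how tightly these genes are packed and what a count on each of them can mean. All are on the mitochondrial chromosome of GRCm38, taken from the GENCODE M21 transcripts and written 5′ to 3′. Of the 13 mRNA genes as annotated, 10 end in a complete stop codon, and 3 (mt-Co3, mt-Nd4 and mt-Cytb) end in a lone T that the poly(A) tail completes to a stop. Of the 10, mt-Nd1 and mt-Nd2 share their last 2 bases with the tRNA genes mt-Ti and mt-Tw on the same strand, so their mRNAs may end short of the annotated stop. In the last 24 bases of 6 of the genes, shown for how their reading frames end, capitals mark the encoded stop codon or its remnant.
mt-Co3, chrM:9367-9390, plus strand: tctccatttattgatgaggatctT
mt-Nd4, chrM:11521-11544, plus strand: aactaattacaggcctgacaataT
mt-Cytb, chrM:15265-15288, plus strand: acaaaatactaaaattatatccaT
mt-Nd4l, chrM:10150-10173, plus strand: aatctcaacctactacaatgcTAA
mt-Co1, chrM:6849-6872, plus strand: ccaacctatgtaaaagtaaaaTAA
mt-Nd6, chrM:13552-13575, minus strand: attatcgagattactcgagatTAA
The mt-Atp8 and mt-Atp6 genes, which encode subunits of the ATP synthase, share 43 bases, and mt-Nd4l and mt-Nd4 share 7 bases, so that the end of mt-Nd4l shown above is also the start of mt-Nd4. The mt-Nd5 and mt-Nd6 genes overlap by 14 bases on opposite strands. The reading frame of mt-Atp8 is shown because a read from its end, in capitals, fits mt-Atp6 equally well.
mt-Atp8, chrM:7766-7969, plus strand: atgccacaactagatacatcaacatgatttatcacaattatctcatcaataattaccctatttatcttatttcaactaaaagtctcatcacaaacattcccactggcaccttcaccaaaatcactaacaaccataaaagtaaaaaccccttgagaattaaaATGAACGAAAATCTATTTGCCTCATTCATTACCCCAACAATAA
A pair of neighbouring tRNA genes on opposite strands is shown because they held the most and the fewest counts of the 22. The capitals in mt-Ts1, a serine tRNA, mark 3 bases that lie opposite the last 3 bases of mt-Co1, and mt-Td is an aspartate tRNA.
mt-Ts1, chrM:6870-6938, minus strand: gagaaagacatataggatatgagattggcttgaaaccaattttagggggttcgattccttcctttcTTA
mt-Td, chrM:6942-7011, plus strand: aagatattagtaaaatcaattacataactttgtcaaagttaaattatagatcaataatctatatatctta
Parts of the mitochondrial genome also exist as copies in nuclear DNA. The copy with the most counts, Gm29216 on chromosome 1, matched mt-Co1 over 483 bases with 1 substitution, A1066T, counted from the first base of mt-Co1. The 60 bases around it are shown with the differing base in capitals.
mt-Co1, chrM:6390-6449, plus strand: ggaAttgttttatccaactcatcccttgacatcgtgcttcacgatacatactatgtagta
Gm29216, chr1:24616129-24616188, minus strand: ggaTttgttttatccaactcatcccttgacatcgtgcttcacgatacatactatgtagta

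Libraries held 16158408 to 34154475 estimated counts. Nr3c2, the targeted gene, averaged 54.3 ± 15.6 CPM in KO-LK, 58.8 ± 10.4 CPM in KO-NK, 108.2 ± 25.8 CPM in CT-HK and 108.0 ± 33.2 CPM in CT-NK libraries (SD, CPM being counts scaled to a common library size by TMM). Sums over marker and receptor genes are in CPM of the library total, without TMM. Principal cell markers such as Aqp2 and Aqp3 were present in every library, with sums of 10668 to 13439 CPM in KO-LK, 7990 to 14209 CPM in KO-NK, 7799 to 12900 CPM in CT-HK and 6522 to 15509 CPM in CT-NK libraries over 14 genes. The 5 connecting tubule markers, among them S100g and Slc8a1, summed to 5267 to 17498 CPM in KO-LK, 7230 to 14969 CPM in KO-NK, 15560 to 52845 CPM in CT-HK and 25161 to 32454 CPM in CT-NK libraries. The 5 markers of the distal convoluted tubule, another segment rich in mitochondria, summed to 1176 to 2179 CPM in KO-LK, 1435 to 3064 CPM in KO-NK, 2678 to 7332 CPM in CT-HK and 3049 to 4019 CPM in CT-NK libraries. Calb1 is on both of these lists, and the leading distal convoluted tubule marker Slc12a3 had medians of 255.4 CPM in KO-LK, 283.7 CPM in KO-NK, 120.4 CPM in CT-HK and 8.07 CPM in CT-NK libraries. The 7 thick ascending limb markers, among them Slc12a1 and Umod, averaged a sum of 1314 CPM in KO-LK, 1198 CPM in KO-NK, 708.1 CPM in CT-HK and 464.6 CPM in CT-NK libraries, with ranges that overlapped (311.1 to 3582, 199.2 to 3631, 123.9 to 1529 and 158.4 to 1318 CPM). RNA of the mitochondria-rich proximal tubule was present at uneven levels. Its 20 markers, among them Slc34a1 and Lrp2, summed to 627.2 to 2458 CPM in KO-LK, 1202 to 6867 CPM in KO-NK, 287.0 to 31215 CPM in CT-HK and 599.9 to 19937 CPM in CT-NK libraries, and Slc34a1 and Lrp2 were above 0 in every library. The part of these segment differences in the results that follow was not tested. The alternatives given with the proximal tubule at the end take in markers of the proximal tubule and thick ascending limb only. Differences in connecting tubule and distal convoluted tubule markers were not addressed by any alternative. Among the 53 markers of 7 other cell types, intercalated cells and non-epithelial cells included, 1 rose and 2 fell in the pooled comparison (edgeR's quasi-likelihood test, adjusted p of 0.05). Of all genes tested, 4.67% rose and 5.86% fell there, so these counts do not show that the cell types were even. The median log2 fold changes of the 7 lists ran from -1.05 (red blood cell) to 0.16 (alpha intercalated cell). In 8 libraries olfactory and vomeronasal receptor genes held over 2500 CPM (KO-LK 1, 3 and 6, KO-NK 1 and 3, CT-HK 4, CT-NK 2 and 4).

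Mitochondrially encoded genes took a smaller share of the counts in knockout than in control libraries in each of the 4 pairings of groups. The share of all counts ran from 7.93% to 13.3% in KO-LK libraries (median 9.94%) and from 9.40% to 13.4% in KO-NK libraries (median 10.4%). It ran from 13.0% to 21.5% in CT-HK libraries (median 14.04%), and was 16.5%, 10.8%, 12.5%, 16.6% and 19.9% in the 5 CT-NK libraries. Knockout and control libraries overlapped: CT-NK replicates 2 and 3 lay within the range of the KO-NK libraries, and the highest library of each knockout group lay above the lowest CT-HK library. CT-NK replicate 2, the lowest control library, was also among the 8 with receptor counts over 2500 CPM, at 2840 CPM. So was CT-NK replicate 4, at 3656 CPM, with a share of 16.6%. CT-NK replicates 2 and 3 held 1083 and 599.9 CPM of proximal tubule markers, against 6655, 10879 and 19937 CPM in CT-NK replicates 1, 4 and 5. In such bulk samples, fewer cells of a mitochondria-rich type and less mitochondrial RNA per cell cannot be told apart.

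**Figure D1:**
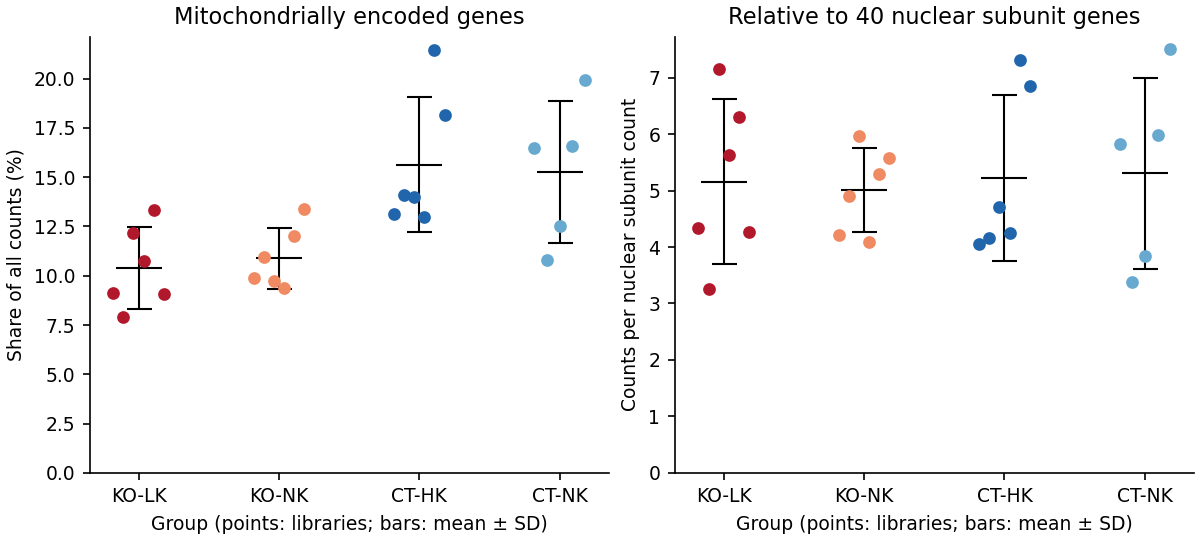
Left, share of all estimated counts on the 37 mitochondrially encoded genes (%), and right, counts on those genes for each count on 40 nuclear-encoded subunits of the same complexes, by group. Points are libraries and bars are mean ± SD. The knockout groups average 10.4% and 10.9% on the left, against 15.6% and 15.3% in the control groups, while all 4 groups average between 5.01 and 5.31 on the right.

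The mean share was 10.6 ± 1.76% in the 12 knockout libraries and 15.5 ± 3.33% in the 11 control libraries, a difference of -4.82 percentage points (SD; two-sided permutation test with 100000 resamples, p = 0.0003, adjusted p = 0.0021 over 7 comparisons). As a share of TPM the same comparison did not pass, with means of 15.9% in knockout and 19.7% in control libraries, a difference of -3.78 points (permutation test, adjusted p = 0.0983), nor did any single pairing of groups. By group, KO-LK libraries averaged 10.4 ± 2.06%, KO-NK libraries 10.9 ± 1.55%, CT-HK libraries 15.6 ± 3.42% and CT-NK libraries 15.3 ± 3.61% (SD). With exact two-sided permutation tests, the difference from CT-HK was -5.23 points for KO-LK and -4.73 points for KO-NK, each with an adjusted p of 0.0152. The difference from CT-NK was -4.87 points for KO-LK and -4.38 points for KO-NK, each with an adjusted p of 0.0424 in the exact permutation test. These 4 comparisons share their control libraries in pairs, and their knockout libraries too. The 2 comparisons with CT-NK rested on few libraries: with 1 library left out at a time, the test passed in 2 of 11 fits for KO-NK and in 4 of 11 for KO-LK. Without CT-NK replicate 5 the differences were -3.21 points for KO-NK and -3.71 points for KO-LK (exact permutation tests, adjusted p = 0.0933 for each).

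Between diets within a genotype, no difference in share passed the test. The share differed by 0.357 points between CT-HK and CT-NK libraries (exact permutation test, adjusted p = 0.892) and by -0.495 points between KO-LK and KO-NK libraries (exact permutation test, adjusted p = 0.745). The lowest p possible was 0.00433 for 6 libraries against 5 and 0.00216 for 6 against 6.

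The 3 kinds of mitochondrial RNA did not contribute alike to the counts. Messenger RNAs held 9.71 ± 1.66% of all counts in knockout and 14.2 ± 3.26% in control libraries, while the rRNAs mt-Rnr1 and mt-Rnr2 held 0.901 ± 0.153% in knockout and 1.27 ± 0.117% in control libraries (SD, n = 12 and 11). The difference passed the test for mRNAs (permutation test, adjusted p = 0.00322) and for rRNAs (permutation test, adjusted p = 0.00028). The rRNA share ran from 0.690% to 1.073% in KO-LK, from 0.743% to 1.179% in KO-NK, from 1.072% to 1.49% in CT-HK and from 1.144% to 1.36% in CT-NK libraries. KO-LK and CT-NK did not overlap, while the highest library of each knockout group lay above the lowest CT-HK library, and that of KO-NK above the lowest CT-NK library. Each of the 4 pairings passed for the rRNAs, with adjusted p-values of 0.0101 to 0.0121 in exact permutation tests. The mRNA share missed the threshold against CT-NK alone, with an adjusted p of 0.0606 in the exact permutation tests of both knockout groups. All 22 tRNA genes together held 0.0316% of counts in knockout and 0.0377% in control libraries.

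The nuclear-encoded subunits of the same complexes also held a smaller share in knockout libraries. The 40 nuclear partner genes of complexes I, III, IV and V held 2.13 ± 0.261% of counts in knockout and 3.00 ± 0.256% in control libraries (SD; permutation test, adjusted p = 0.00014). There were 5.08 ± 1.11 mitochondrial counts for each nuclear partner count in knockout and 5.26 ± 1.49 in control libraries, a difference of -0.182 that did not pass (permutation test, adjusted p = 0.952). Single libraries ran from 3.25 to 7.15 in knockout and from 3.37 to 7.51 in control groups, so the spread between libraries was wide beside the difference of the means.

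Gene by gene, edgeR's quasi-likelihood test was fitted on all 25829 genes that passed a filter on low counts. Of the 37 members, 26 passed it: the 13 mRNAs, the 2 rRNAs and 11 tRNAs. In the pooled comparison of knockout with control libraries, 17 of the 26 fell and none rose at a Benjamini-Hochberg adjusted p of 0.05, where 5.86% of all genes tested fell and 4.67% rose. Those that fell were 11 of the 13 mRNAs, both rRNAs and 4 tRNAs, and all 26 estimates were negative. The median log2 fold change was -0.85 over the 26 genes and 0.09 over all genes tested. The 13 mRNAs lay close together, between -1.06 for mt-Nd4l and -0.60 for mt-Co1, with standard errors of 0.15 to 0.25.

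**Figure D2:**
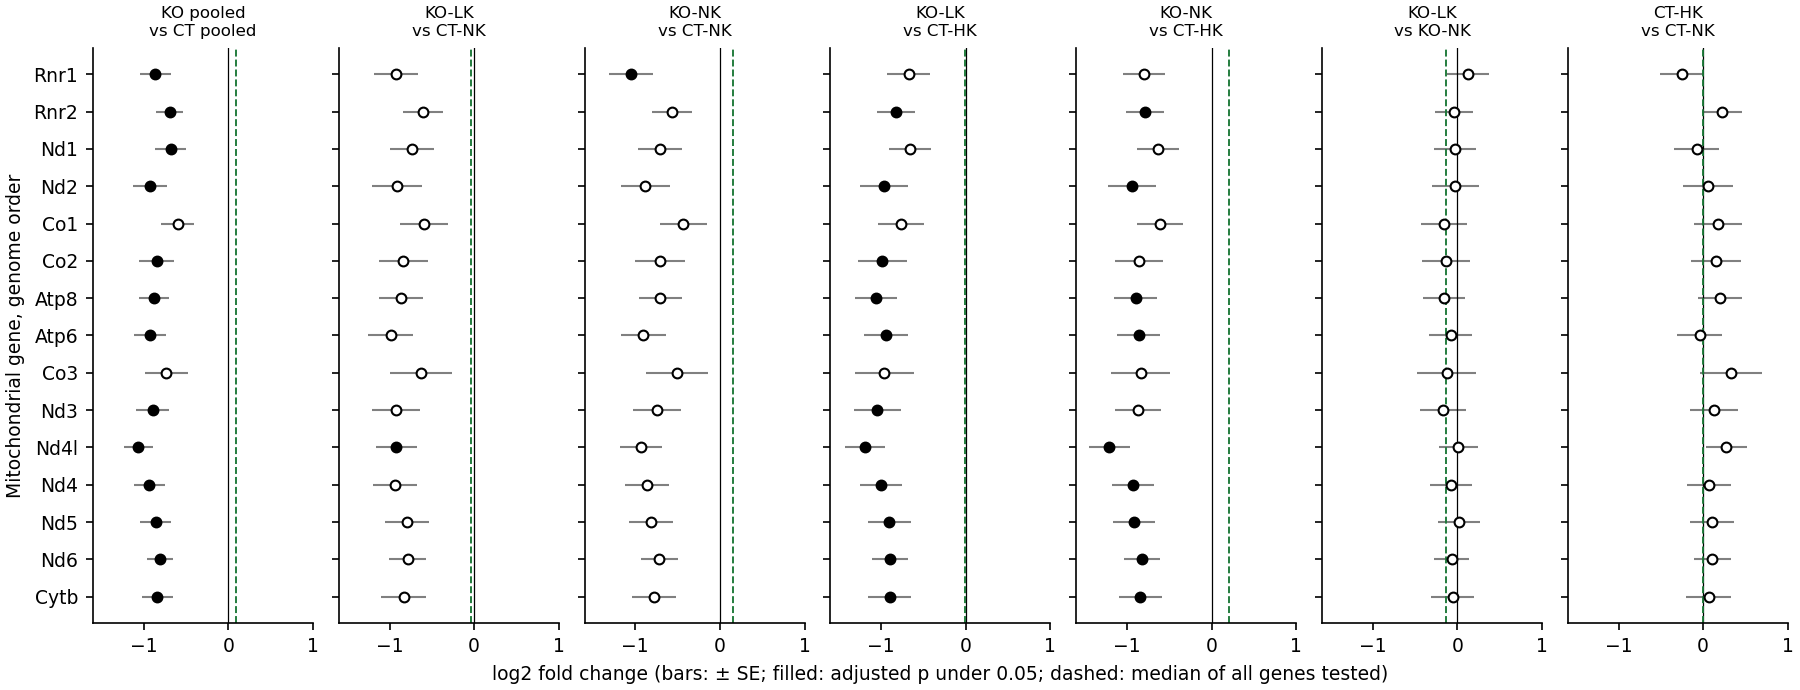
Log2 fold change (± SE) of the 13 mRNA and 2 rRNA genes in genome order in 7 comparisons, filled where the adjusted p was under 0.05. Dashed lines mark the median of all genes tested. In the 5 comparisons of knockout with control libraries all 15 points lie left of 0, while in the 2 diet comparisons they lie between -0.25 and 0.33.

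Complex I, the NADH dehydrogenase that feeds electrons into the chain, has 7 mitochondrial subunits. All 7 genes that encode these subunits fell in the pooled comparison. mt-Nd4l encodes the smallest of them. It had 159 to 301 CPM in KO-LK libraries (median 208), 127 to 294 CPM in KO-NK libraries (median 222) and 354 to 599 CPM in CT-HK libraries (median 508). The CT-NK libraries had 505, 198, 282, 419 and 626 CPM. No knockout library reached the lowest CT-HK library, and CT-NK replicates 2 and 3 lay among the knockout libraries. The log2 fold change was -1.06 ± 0.17 (SE; edgeR's quasi-likelihood test, adjusted p = 0.000144).

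mt-Nd6 is the only mRNA gene on the opposite strand and thus comes from the other precursor. It had 425 to 806 CPM in KO-LK (median 624.7), 498 to 882 CPM in KO-NK (median 639) and 837 to 1548 CPM in CT-HK libraries (median 1108). The CT-NK libraries had 1342, 687, 946, 1045 and 1380 CPM. Its log2 fold change of -0.80 ± 0.15 (SE; edgeR's quasi-likelihood test, adjusted p = 0.000917) lay within the range of the mRNAs from the other strand. Its share of the mitochondrial mRNA counts was 0.710 ± 0.0540% in knockout and 0.726 ± 0.0657% in control libraries (SD), and the test of that share did not pass. Because these libraries keep no strand, reads from mt-Nd6 and from RNA lying opposite it cannot be told apart. The counts on mt-Nd6 therefore cannot separate one precursor from the other. mt-Nd1, mt-Nd2, mt-Nd3, mt-Nd4 and mt-Nd5 changed by -0.68, -0.93, -0.89, -0.93 and -0.86 on the log2 scale, with adjusted p-values from edgeR's quasi-likelihood test between 0.00115 and 0.015.

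mt-Cytb, the heme-bearing cytochrome b and the sole mitochondrial subunit of complex III, had 8072 to 16755 CPM in KO-LK (median 10479), 8303 to 16829 CPM in KO-NK (median 11160) and 14535 to 28798 CPM in CT-HK libraries (median 20335). The CT-NK libraries had 23658, 14379, 18852, 19338 and 26587 CPM. The highest library of each knockout group lay above the lowest library of each control group. Its log2 fold change was -0.84 ± 0.18 (SE; edgeR's quasi-likelihood test, adjusted p = 0.00336).

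The 3 subunits of complex IV, cytochrome c oxidase, carry its catalytic core, and they passed the test unevenly. mt-Co2 fell, with a log2 fold change of -0.85 ± 0.21 (SE; edgeR's quasi-likelihood test, adjusted p = 0.0077). mt-Co1 had 10914 to 23525 CPM in KO-LK (median 15151), 11857 to 24155 CPM in KO-NK (median 18511) and 18642 to 42070 CPM in CT-HK libraries (median 27612), and 32585, 16816, 22754, 21444 and 30199 CPM in CT-NK libraries. Its log2 fold change of -0.60 ± 0.20 (SE) did not pass (edgeR's quasi-likelihood test, adjusted p = 0.0515). mt-Co3 had the largest standard error among the mRNAs, and ran from 12728 to 35550 CPM in KO-LK, from 16095 to 32904 CPM in KO-NK, from 21536 to 68964 CPM in CT-HK and from 13029 to 45900 CPM in CT-NK libraries. Its log2 fold change of -0.73 ± 0.25 (SE) did not pass either (edgeR's quasi-likelihood test, adjusted p = 0.0658). With DESeq2 both passed, with adjusted p-values of 0.00153 for mt-Co1 and 0.00469 for mt-Co3.

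Both mitochondrial genes of the ATP synthase, which share 43 bases, fell. mt-Atp6 encodes the membrane subunit that carries the proton path, and it had 6915 to 12141 CPM in KO-LK (median 9133), 7209 to 12110 CPM in KO-NK (median 9295), 13329 to 21652 CPM in CT-HK (median 18075) and 8060 to 28547 CPM in CT-NK libraries (median 18508). No knockout library reached the lowest CT-HK library. The log2 fold change was -0.92 ± 0.19 for mt-Atp6 (SE; edgeR's quasi-likelihood test, adjusted p = 0.00155) and -0.88 ± 0.18 for mt-Atp8 (adjusted p = 0.00184).

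The small-subunit rRNA mt-Rnr1 had 750 to 1653 CPM in KO-LK (median 1200), 624 to 1750 CPM in KO-NK (median 1031) and 1301 to 2822 CPM in CT-HK libraries (median 1840). The CT-NK libraries had 2247, 1369, 2355, 2052 and 3292 CPM. Its log2 fold change was -0.86 ± 0.18 (SE; edgeR's quasi-likelihood test, adjusted p = 0.00233). The large-subunit rRNA mt-Rnr2 changed by -0.69 ± 0.16 on the log2 scale (SE; edgeR's quasi-likelihood test, adjusted p = 0.00598).

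Between single groups fewer genes passed. Against CT-HK, 13 of 26 genes fell in KO-LK, where 3.29% of all genes tested fell, and 10 of 26 fell in KO-NK, where 3.32% of all genes tested fell (edgeR's quasi-likelihood test, adjusted p of 0.05). Against CT-NK, 2 genes fell in KO-LK (mt-Nd4l and mt-Ti), where 1.13% of all genes fell, and 1 fell in KO-NK (mt-Rnr1), where 0.763% of all genes fell. None rose in any of these, where 2.2% (KO-LK against CT-HK), 2.46% (KO-NK against CT-HK), 0.914% (KO-LK against CT-NK) and 0.937% (KO-NK against CT-NK) of all genes rose. The medians of the 26 genes were nearer to each other than these counts: -0.95 for KO-LK against CT-HK, -0.88 for KO-NK against CT-HK, -0.72 for KO-LK against CT-NK and -0.71 for KO-NK against CT-NK on the log2 scale, where all genes had medians of -0.01, 0.21, -0.04 and 0.15. In KO-NK against CT-NK, the pairing on a shared diet, 16 of the 26 had an unadjusted p under 0.05, where 11.7% of all genes had, and in KO-LK against CT-NK 15 of the 26 had, where 12.9% of all genes had. The counts against CT-NK moved with single libraries: without CT-NK replicate 2, 4 genes passed in KO-NK and 9 in KO-LK, and without CT-NK replicate 5 none passed in either. Without KO-NK replicate 3, 10 passed in KO-LK, and without KO-NK replicate 6, 4 passed in KO-NK. Against CT-HK the lowest counts were 3 in KO-LK, without KO-LK replicate 2 or 6, and 1 in KO-NK, without KO-NK replicate 4.

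Diet within a genotype moved no mitochondrial gene past the threshold. In CT-HK against CT-NK 0 of 26 passed edgeR's quasi-likelihood test, where 0% of all genes passed, and 0 of 26 had an unadjusted p under 0.05, where 3.59% of all genes had. The median log2 fold change was 0.16. In KO-LK against KO-NK the counts were likewise 0 of 26, with 0% of all genes past the adjusted and 2.83% past the unadjusted threshold, and the median was -0.07. DESeq2 and limma also called 0 mitochondrial genes in both comparisons.

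Compared per length, the 13 mRNAs stood in a steep order. On the TPM scale, which divides by transcript length, the level of mt-Co3 over all libraries was 39.3 times that of mt-Nd3, the lowest. In KO-NK libraries, for example, mt-Co3 had 40625 ± 6647 TPM, mt-Atp6 had 21182 ± 1133 TPM and mt-Co2 had 20037 ± 1674 TPM (SD, n = 6). These were followed by mt-Co1 at 12731 ± 2510 TPM, mt-Cytb at 12284 ± 2034 TPM and mt-Nd1 at 9450 ± 752 TPM. The next were mt-Nd4 at 4904 ± 658 TPM, mt-Atp8 at 4277 ± 429 TPM and mt-Nd2 at 4015 ± 436 TPM. The lowest were mt-Nd5 at 2339 ± 345 TPM, mt-Nd6 at 2187 ± 237 TPM, mt-Nd4l at 1651 ± 294 TPM and mt-Nd3 at 977 ± 154 TPM. Neighbours such as mt-Atp6 and mt-Co2, mt-Co1 and mt-Cytb, mt-Atp8 and mt-Nd2, and mt-Nd5 and mt-Nd6 lay within their SD of each other. The upper 3 places went to genes of complexes IV and V, and the lowest 5 to genes of complex I. The place of mt-Nd3 is uncertain, since its near-identical nuclear copy Gm28438 held 114% to 391% of the counts of mt-Nd3, and how reads were divided between the pair was not tested. The pairs mt-Atp8 with mt-Atp6 and mt-Nd4l with mt-Nd4 each overlap on the same strand, with no tRNA gene between them. The genes of each pair therefore need not lie on separate mRNAs. Their levels per length still differed, by several fold for mt-Atp8 and mt-Atp6. Whether such gaps between a short and a long gene reflect RNA levels or the division by length was not tested. The places of mt-Atp8 and mt-Nd4l are thus uncertain too.

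**Figure D3:**
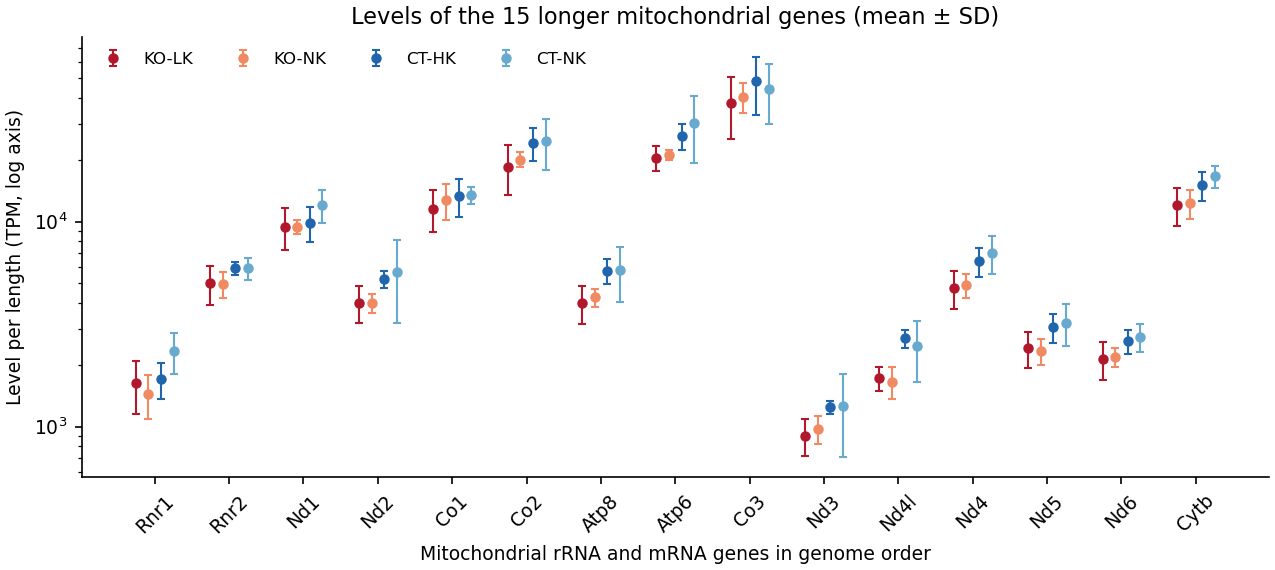
Level per length (TPM, log axis) of the 13 mRNA and 2 rRNA genes in genome order, as mean ± SD for the 4 groups. The order of the genes spans from 901 to 1256 TPM for mt-Nd3 to 37877 to 48443 TPM for mt-Co3 across group means, far wider than the distance between groups for any gene.

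The make-up of the mitochondrial RNA was not shown to differ between groups. Complex I genes held 23.8 ± 1.16% of mitochondrial mRNA counts in knockout and 24.6 ± 1.47% in control libraries, and complex IV genes held 47.7% to 55.0% in knockout and 46.1% to 58.9% in control libraries (SD for complex I). The rRNAs held 8.55 ± 1.33% of mitochondrial counts in knockout and 8.46 ± 1.64% in control libraries (SD). Of 49 permutation tests, over 7 such shares and 7 comparisons, 0 passed after adjustment. Between single groups the lowest p possible was 0.00433 for 6 libraries against 5 and 0.00216 for 6 against 6. A lone test at that floor could not pass after adjustment over 49, so a difference in 1 share between 2 groups could not be called. The lowest p-value was in KO-NK against CT-NK. There the tRNA share of mitochondrial counts was 0.314 ± 0.0290% in KO-NK and 0.203 ± 0.0275% in CT-NK libraries (SD; exact permutation test, p = 0.00433, adjusted p = 0.106), with no overlap between the groups. Complex IV (53.5% in KO-NK, 48.2% in CT-NK) and complex I (23.2% in KO-NK, 25.5% in CT-NK) shares came next (exact permutation tests, p = 0.00866, adjusted p = 0.106). The tRNA share in KO-LK against CT-NK (0.272% and 0.203%) had the same p-values in that test.

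Transfer RNAs are uncapped, carry no poly(A) tail in their mature form and are shorter than most sequenced fragments. Their counts followed strand. All 8 tRNA genes on the strand of mt-Nd6 (light-strand genes) passed the filter on low counts, and 3 of the 14 on the other strand (mt-Tl1, mt-Ti and mt-Tm) did. Summed over genes, the mean level was 353.4 CPM for the 8 light-strand genes and 4.93 CPM for the 14 heavy-strand genes. mt-Ts1 alone accounted for 327.7 CPM of this, with 3769 to 21509 counts per library. mt-Td, its neighbour on the opposite strand, had 17 counts in all 23 libraries together and was at 0 in 14 of them.

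**Figure D4:**
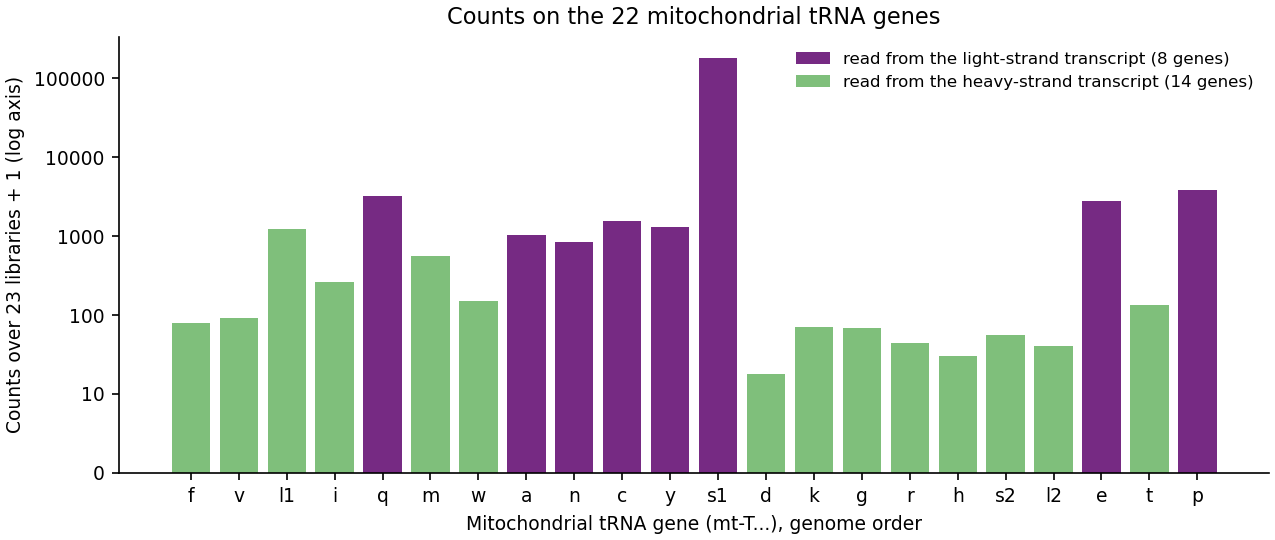
Estimated counts summed over 23 libraries (log axis, value + 1) on each of the 22 mitochondrial tRNA genes in genome order, coloured by strand. The 8 light-strand genes hold from 835 counts (mt-Tn) to 184221 counts (mt-Ts1), and the 14 heavy-strand genes hold from 17 counts (mt-Td) to 1246 counts (mt-Tl1).

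Each light-strand tRNA gene lies opposite the heavy-strand precursor, and the 3′ end of mt-Ts1 lies opposite the last 3 bases of the abundant mt-Co1. Since these libraries keep no strand, reads from a tRNA gene and from RNA of the opposite strand cannot be told apart. The outcome of the test differed between tRNAs. mt-Ti had 0.146 to 0.313 CPM in KO-LK (median 0.202), 0.139 to 0.565 CPM in KO-NK (median 0.200) and 0.327 to 1.01 CPM in CT-HK libraries (median 0.738), and 0.696, 0.492, 0.600, 0.913 and 1.49 CPM in CT-NK libraries. It fell, with a log2 fold change of -1.67 ± 0.33 (SE; edgeR's quasi-likelihood test, adjusted p = 0.00117), on only 265 counts over all libraries. The filter on low counts can be met by the control libraries alone, where mt-Ti was higher. Its calls, here and in KO-LK against CT-NK, and the size of its fall are therefore uncertain. mt-Tl1 (-0.99), mt-Tm (-0.85) and mt-Tq (-0.85) also fell in the pooled comparison, with adjusted p-values of 0.00831, 0.0272 and 0.0397 in edgeR's quasi-likelihood test. The calls of mt-Tm and mt-Tq were lost in 14 and 21 of their alternative fits. mt-Ts1, with by far the most counts, had a log2 fold change of -0.42 ± 0.22 (SE) and did not pass (edgeR's quasi-likelihood test, adjusted p = 0.287). The others that did not pass, mt-Ta, mt-Tn, mt-Tc, mt-Ty, mt-Te and mt-Tp, lay between -0.38 and -0.86. The 11 untested tRNA genes had 17 to 150 counts each over all libraries.

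Nuclear copies of nearly the same sequence also received counts. Transcripts of 17 nuclear genes matched a mitochondrial gene at 90% identity or more over at least 100 bases, and the 5 with the most counts lie side by side on chromosome 1. Gm29216, the mt-Co1 copy whose sequence is shown above, averaged 0.646% of all counts. Its counts equalled 26.7% to 36.2% of those of mt-Co1 in KO-LK, 27.2% to 30.8% in KO-NK, 32.3% to 36.02% in CT-HK and 23.96% to 36.7% in CT-NK libraries. Gm28438, which differs from mt-Nd3 by 1 substitution (T3C, counted from the first base of mt-Nd3), held 114% to 391% of the mt-Nd3 counts. Gm10925 matched mt-Atp6, Gm28437 matched mt-Co3 and Gm28661 matched mt-Co2 without a difference over their aligned lengths. Reads from stretches where such a pair is identical could come from either member, so single values of mt-Co1, mt-Nd3 and mt-Atp6 are uncertain. This holds also for mt-Co2 and mt-Co3, whose copies held up to 6.92% (KO-LK) and 7.72% (CT-HK) of their counts. Gm10222 and Gm28439 matched mt-Nd4l and mt-Nd4 at 100% identity over 294 and 876 bases and held 0 counts. How reads were divided in those pairs was not tested. All copies together held 0.681 ± 0.151% of counts in knockout and 0.991 ± 0.327% in control libraries (SD; permutation test, adjusted p = 0.0108). With each copy's counts added to its mitochondrial gene, 18 of 26 genes fell in the pooled comparison. mt-Co1 was among them, with a log2 fold change of -0.63 (edgeR's quasi-likelihood test, adjusted p = 0.0403), and mt-Nd3 changed by -0.95 (adjusted p = 0.000111).

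Nuclear genes that build and serve mitochondria were read from the same fit, in lists chosen with earlier results of these data known. In the pooled comparison the nuclear partner subunits fell almost throughout. The count that fell was 10 of 10 for complex I (median log2 fold change -0.74), 8 of 9 for complex III (-0.84), 10 of 10 for complex IV (-0.85) and 11 of 11 for complex V (-0.70), by edgeR's quasi-likelihood test at an adjusted p of 0.05, where 5.86% of all genes tested fell and 4.67% rose. Examples are Ndufb8 of complex I (-0.90), Uqcrq and Uqcrfs1, the Rieske iron-sulfur protein, of complex III (-1.03 and -0.90), Cox7a2 of complex IV (-0.98) and Atp5g1, a subunit of the rotor ring of the ATP synthase (-1.01), all on the log2 scale. Uqcrfs1 averaged 380.5 ± 55.6 CPM in KO-LK, 445 ± 102 CPM in KO-NK, 786 ± 117 CPM in CT-HK and 753.5 ± 80.5 CPM in CT-NK libraries (SD).

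The machinery that copies and transcribes mitochondrial DNA had calls in both directions. Of 22 genes tested, 3 fell and 3 rose, with a median of -0.03. For this list and those that follow, the shares of all genes tested are again 5.86% lower and 4.67% higher, with a median of 0.09. Mterf2, a mitochondrial transcription termination factor family member, fell by 0.44 on the log2 scale (adjusted p = 0.0203), while Polg2, the accessory subunit of the mitochondrial DNA polymerase, and Exog, a mitochondrial nuclease, rose by 0.35 (adjusted p = 0.0282) and 0.51 (adjusted p = 0.00533) in edgeR's quasi-likelihood test. Of 25 genes for processing and stability of mitochondrial RNA, 5 fell and 1 rose (median -0.16). Slirp, which with Lrpprc stabilises mitochondrial mRNAs, fell by 0.57 (adjusted p = 0.00199), and Hsd17b10, a subunit of the enzyme that cuts tRNAs at their 5′ ends, fell by 0.52 (adjusted p = 0.0055). Of 19 mitochondrial tRNA synthetases, 3 fell (Fars2, Gars and Mars2) and none rose (median -0.24).

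Of 13 regulators of mitochondrial biogenesis, 3 fell and none rose, with a median of 0.09. They were Esrra, the nuclear receptor ERR alpha (-0.85, adjusted p = 0.00152), Sirt3, a mitochondrial deacetylase (-0.98, adjusted p = 0.000749), and Ppara, a receptor that drives fatty acid oxidation genes in the proximal tubule (-1.22, adjusted p = 0.0466, edgeR's quasi-likelihood test throughout). Of 20 genes of the outer membrane, import and matrix, 13 fell and none rose (median -0.47), among them Slc25a4, an ADP/ATP carrier (-0.75), Hspd1, a matrix chaperone (-0.87), and Phb, prohibitin (-0.58). Of 10 mitophagy genes, 2 fell (Bnip3 at -0.60 and Optn at -0.44) and Sqstm1 rose by 0.41 on the log2 scale.

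Proximal tubule RNA moved with the mitochondrial share in some libraries. The 2 libraries richest in its markers, CT-HK replicate 6 and CT-NK replicate 5, had mitochondrial shares of 18.1% and 19.9%. Within CT-NK, replicates 1, 4 and 5 held more of these markers than replicates 2 and 3 and had the higher shares. In KO-NK the richest library, replicate 6 at 6867 CPM, had the highest share of its group, 13.4%. In KO-LK the richest, replicate 1 at 2458 CPM, had 9.11%, below the group median of 9.94%. CT-HK replicate 5, with the highest share of all at 21.5%, had 694 CPM of those markers. Without the 2 richest libraries the pooled difference in share was -4.03 percentage points (permutation test, adjusted p = 0.00543), and 14 of the mitochondrial genes fell. With the marker sums of proximal tubule and thick ascending limb as covariates 17 fell. These counts are of the pooled comparison, and the share of all genes called under these settings is not given. Against CT-NK no mitochondrial gene passed under either setting in KO-NK or KO-LK, while without the 2 richest libraries some passed against CT-HK. How much of the fall goes with segment content was not tested.

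**Figure D5:**
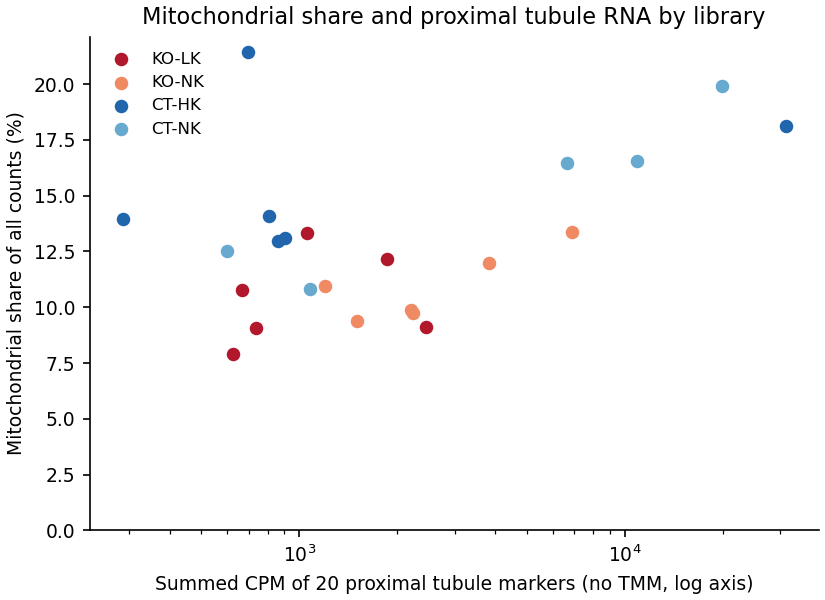
Share of all counts on mitochondrially encoded genes (%) against the summed CPM of 20 proximal tubule markers (of the library total, without TMM, log axis), 1 point per library, coloured by group. Knockout libraries stay at or below 13.4% at 627.2 to 6867 CPM, and control libraries lie between 10.8% and 21.5% at 287.0 to 31215 CPM.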

How the data were processed

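Total RNA of 23 libraries was converted to cDNA with SMART-Seq HT and Nextera XT, per the labels' protocols. The authors deposited estimated counts (expected counts) per gene and TPM, quantified with Salmon 0.14.10 on GRCm38.p6, per the submitters' processing notes; of the count values, 35.9% were not whole, and counts were rounded. TPM weights short genes heavily (1 TPM took a median of 0.414 counts on mt-Ts1 and 40.6 on mt-Co1), and an miRNA gene, Gm24245, held 15.0% to 27.1% of TPM, so changes were tested on counts.

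Genes were taken by mt- symbols of GENCODE M21 (all 54393 IDs matched). Tests used edgeR 4.0.16 in R 4.3.3 (TMM, default filter, 1 mean per group over all 23 libraries, quasi-likelihood F test, Benjamini-Hochberg adjustment over 25829 genes, threshold 0.05; 19 residual degrees of freedom). The script was tested on simulated counts. Shares per library were compared by two-sided permutation tests with scipy 1.17.1, exact except for the pooled comparison (100000 resamples), adjusted over 7 comparisons, or over 49 for composition. Nuclear copies were found with blastn 2.17.0 (90% identity, 100 bases). Of 55 pairs of libraries within groups, none were duplicates (lowest chi-square per gene 23.4).

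Members and lists were chosen with earlier results of these data known. All 37 members are accounted for; up to 3 members of smallest p per pathway list, Nr3c2 and the leading 2 markers of lists with printed sums are named. Of 12 marker lists, 5 are given by their sums and 7 by their calls together. Alternatives were other scalings and filters, a length offset, a replicate block, segment covariates, only the groups compared, DESeq2 1.42.0, limma 3.58.1 on log2(TPM + 1) or log2(TPM + 0.1), other denominators of the share, and leaving out libraries. Adding copies to their mitochondrial genes was chosen after seeing the data.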

Additional observations from a re-analysis of the deposited data

Results flagged for a closer look

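A single value stood apart from its group by Dixon's criterion, out of 92 groups of values examined, where chance alone gives about 1 in 20. The ATP synthase genes mt-Atp6 and mt-Atp8 held 6.76% of the mitochondrial mRNA counts in CT-HK replicate 5, against 10.8% to 13.2% in the other CT-HK libraries. The same library had the highest share of counts on nuclear copies, 1.90%, and there the counts on Gm10925, the copy of mt-Atp6, equalled 36.4% of those on mt-Atp6. With the copies' counts added to their mitochondrial genes the share was 8.33% in that library and 11.5% to 12.4% in the others. On the TPM scale it was 12.6% in that library and 18.7% to 22.5% in the others.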

How the results depend on the processing

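No mitochondrial gene was called higher in any comparison under any alternative. The calls and non-calls of single genes in the pooled comparison were kept in 914 of 981 alternative values, 48 lost the call, 19 gained it and 0 changed sign. The pooled count of 17 was 14 to 21 in the alternatives other than limma on log2(TPM + 1) with no filter (9 genes), and 15 to 19 when single libraries were left out. Both diet comparisons stayed at 0. No composition test passed under any alternative, where a lone test between single groups could not pass. With library size in place of TMM, all genes had a median of 0.33 in the pooled comparison (log2 scale), against 0.09 with TMM, and that of the mitochondrial genes -0.61, against -0.85.

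The counts between single groups moved widely, and the causes were not tested. The share of all genes called under each alternative is not given here, nor for the pooled counts above. A higher or lower count may therefore reflect how many genes a setting called in all. For KO-NK against CT-NK (1 gene), 2 genes passed with DESeq2's size factors, with scaling without mitochondrial genes, with a length offset and with copies added, 7 without TMM, 14 with at least 5 CPM in 5 libraries, 12 with DESeq2 and 5 with limma at either pseudocount. For that comparison 0 passed with no filter, with segment covariates, with only the groups compared, without the 8 receptor-rich libraries and without the 2 libraries richest in proximal tubule markers. Leaving out single libraries gave 0 to 4. For KO-LK against CT-NK (2 genes), 6 passed with DESeq2's size factors, 11 without TMM, 14 with the stricter filter, 13 with DESeq2, 4 with limma on log2(TPM + 1), 1 with the length offset, with only the groups compared and without receptor-rich libraries, and 0 with no filter, with covariates and without the proximal tubule-rich libraries. Leaving out single libraries gave 0 to 10. For KO-NK against CT-HK (10 genes), 16 passed with the stricter filter, 19 with DESeq2, 6 with the length offset and without receptor-rich libraries, 3 with limma at either pseudocount, and 2 with no filter, with limma unfiltered and without proximal tubule-rich libraries. Leaving out single libraries gave 1 to 13. For KO-LK against CT-HK (13 genes), 21 passed with DESeq2, 6 with the length offset, with limma on log2(TPM + 0.1) and without proximal tubule-rich libraries, 5 with limma on log2(TPM + 1) and without receptor-rich libraries, 4 with no filter and 3 with limma unfiltered. Leaving out single libraries gave 3 to 14.

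The difference in share of counts, knockout minus control, was negative in every knockout comparison under every alternative, but the calls depended on the denominator. Counts per nuclear partner count differed from CT-NK by -0.303 in KO-NK and -0.153 in KO-LK, from CT-HK by -0.219 in KO-NK and -0.0693 in KO-LK, and by -0.182 when pooled, none passing, and the signs of CT-HK against CT-NK (-0.0841) and KO-LK against KO-NK (0.149) turned. Of TPM, the share differed by -3.22, -4.21, -3.33, -4.33 and -3.78 points in the same 5 comparisons, none passing. Without the receptor-rich libraries the 4 single comparisons gave -4.88, -5.65, -4.72 and -5.48 points and did not pass with the fewer libraries, the pooled one passed, and CT-HK against CT-NK turned to -0.162. Without the proximal tubule-rich libraries KO-NK against CT-NK gave -3.21 and KO-LK against CT-NK -3.71, not passing. Leaving out single libraries gave -5.49 to -3.21 for KO-NK against CT-NK (2 of 11 passed), -5.99 to -3.71 for KO-LK against CT-NK (4 of 11 passed), -5.27 to -3.57 for KO-NK against CT-HK, -5.81 to -4.06 for KO-LK against CT-HK and -5.28 to -4.22 pooled (all passed). It gave -0.808 to 1.52 for CT-HK against CT-NK, where the sign turned without CT-HK replicate 5 (-0.808) or 6 (-0.146) or CT-NK replicate 2 (-0.758) or 3 (-0.325), and -1.08 to 0.00296 for KO-LK against KO-NK, positive without KO-NK replicate 6 (0.00296).

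Of 33 same-numbered pairs of libraries, 9 deviated from their group means with a correlation above 0.1 (range -0.69 to 0.71), so the numbers were not taken to pair the samples and the replicate block was an alternative only. With it, 2 genes passed in KO-NK against CT-NK, 7 in KO-LK against CT-HK and 16 in the pooled comparison. Exact sign-flip tests of paired shares gave -4.87 (KO-NK) and -4.61 (KO-LK) points against CT-NK, and -4.73 (KO-NK) and -5.23 (KO-LK) points against CT-HK. They gave -4.67 points pooled and -0.146 points for CT-HK against CT-NK. The comparisons of knockout with control had adjusted p from 0.109 to 0.175 in these sign-flip tests. With so few pairs no such test could pass after adjustment, so these p-values do not show an absence of difference.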
